A study of Mus musculus with 4 samples.

Results

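The genes described here are the Myc transcription factor network and the proteins that make ribosomal RNA and assemble ribosomes in the nucleolus. They were set as a list of 45 gene symbols, and a gene was measured by its brightest probe set among those annotated to that symbol alone. Of the 45 symbols, 44 had such a probe set, out of 18193 genes named on the array, and Npm3 was not analysed here. Of the 44 genes, 42 had a mean signal above the median of all values on the arrays (35.1) and were tested. Mycn and Mycl lay below that filter and are given as signals only.

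RNA came from 3T3-MEFs, mouse embryonic fibroblasts passaged until they grow as a permanent line, made from wild-type mice and from mice carrying SMRTmRID. SMRT is a corepressor, a protein through which nuclear receptors keep target genes silent, and the RID mutation alters the domains that bind those receptors. Both groups were undifferentiated cells taken when they reached confluency, with no treatment named, and each was measured on 2 Affymetrix arrays, 4 in all. The labels call the 2 arrays of a genotype technical replicates and do not say how many embryos or lines stand behind them. Every SD, SE and p-value below therefore describes the spread between technical replicates, and a difference between these lines cannot be told apart from one due to the mutation. The transcript of the mutated corepressor was not analysed here, so the genotype labels were not checked.

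Ribosome assembly starts in the nucleolus, where RNA polymerase I transcribes a long precursor of ribosomal RNA. Small nucleolar ribonucleoproteins (snoRNPs) modify that precursor, and large sets of assembly factors cut and fold it around ribosomal proteins into the small (40S) and large (60S) subunits. Myc, working as a dimer with Max on the DNA sequence called the E-box, is known as a broad activator of the genes for this machinery in growing cells, while the Mxd proteins and Mnt compete for Max and repress many of the same genes.

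Controls for RNA integrity were close on all 4 arrays, with 3′ over 5′ signal ratios of 1.19 to 1.20 for beta-actin and 0.755 to 0.773 for Gapdh. Over the 42 tested members 2 arrays of one genotype differed by a median of 0.0609 (wild-type) and 0.0634 (SMRTmRID) in absolute log2 units. The 4 pairings across genotypes differed by 0.612 to 0.643. Over all tested genes these medians were 0.0983 (wild-type), 0.0986 (SMRTmRID) and 0.443 to 0.451 across genotypes. Fibroblast markers were shared only in part. Of the 12, Col1a1, Col1a2, Col3a1, Col5a2, Vim, Fn1 and S100a4 had mean signals of at least 7610 in both genotypes. Mean signals of Thy1, Fap and Lum were 13.6, 6.62 and 3.15 in wild-type, against 3178, 478 and 183 in SMRTmRID, so these 3 passed the filter through SMRTmRID alone. Pdgfra had mean signals of 254 in wild-type, against 4959 in SMRTmRID, and Pdgfrb had 1799 against 6212. The 12 markers summed to 79450 and 81448 in wild-type, against 96940 and 91959 in SMRTmRID. Thy1, Fap, Lum, Pdgfra and Pdgfrb thus stood far apart between the genotypes, and their part in the members' differences was not tested. The 4 endothelial markers were all below the filter, the 5 epithelial markers summed to between 199 and 312, and the 6 blood cell markers to between 326 and 549. Of the blood cell markers, Cd14 (mean 149 in wild-type, 203 in SMRTmRID) and Lyz2 (21.5 and 100) were called higher. Lyz2 passed the filter through SMRTmRID alone, and the other tested ones, Adgre1 and Csf1r, did not pass the threshold.

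Genes for ribosome biogenesis were mostly lower in SMRTmRID cells. Among 42 tested genes there were 29 falls, 6 rises and 7 that missed the threshold (limma, Benjamini-Hochberg adjusted p under 0.05 over 11056 genes). So 69.0% of the members were called lower, where 35.0% of all tested genes were, and 14.3% were called higher, where 30.3% of all tested genes were. In either direction 83.3% of the members passed, against 65.2% of all genes, so a call alone says little in these data, and the direction is where the members stood apart in counts. All differences below subtract wild-type from SMRTmRID in log2(signal + 16), a scale that understates changes of dim genes. On that scale the median difference of the members was -0.57, while that of all tested genes was -0.05, and the members ranged from -1.35 to 0.83. Arrays of different genotype were fully separated for 30 members in the lower direction, a share of 43.4% among all genes, and for 7 in the higher direction, a share of 38.1% among all genes. With the filter raised to the 75th percentile of all values, 26 of 38 members were lower and 5 higher, against 42.9% and 33.1% of the 6832 genes then tested. Changes were moderate in size. Among the members 6 fell at least 2-fold and none rose that far, where 6.79% of all tested genes fell and 9.69% rose at least 2-fold. Each array had been scaled to one trimmed mean, so these are levels relative to the rest of the transcriptome, and lower RNA per cell cannot be told apart from fewer cells with the transcript.

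**Figure D1:**
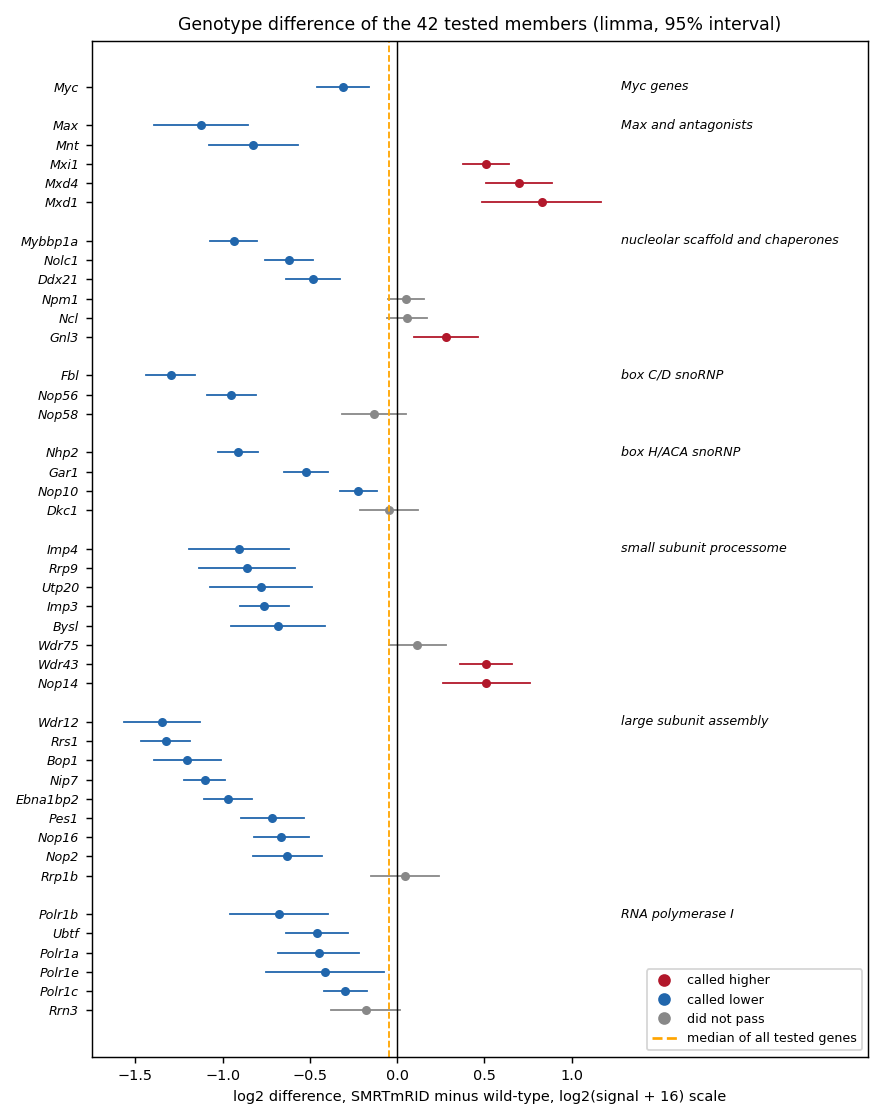
Log2 difference (SMRTmRID minus wild-type, in log2(signal + 16)) of each of the 42 tested members with limma's 95% interval, grouped by role, with the median of all tested genes as a dashed line. Points called lower lie in every group, and the 6 called higher are Mxd1, Mxd4, Mxi1, Nop14, Wdr43 and Gnl3.

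**Figure D2:**
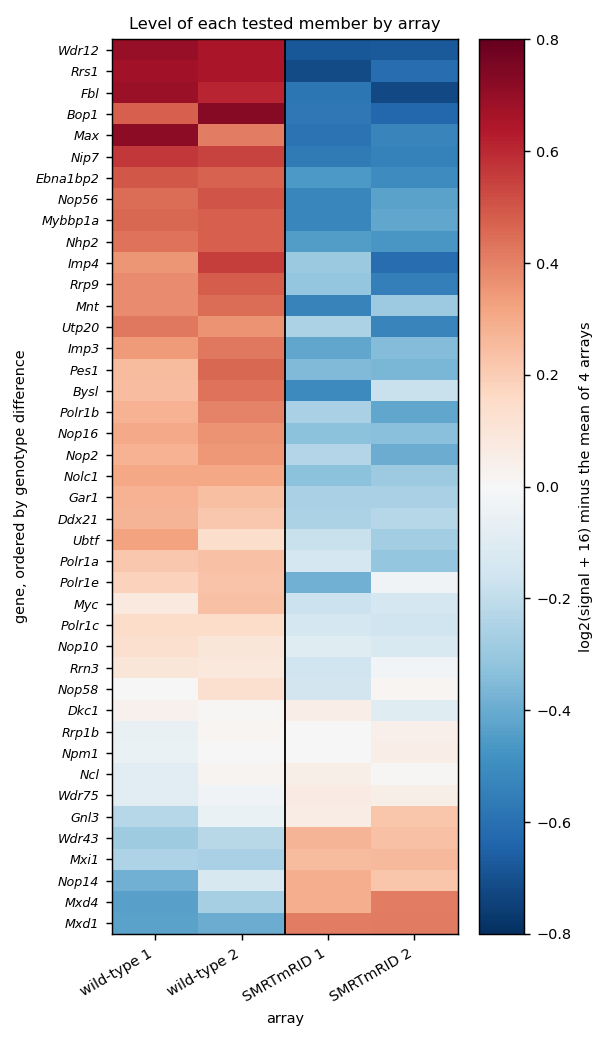
Level of each tested member on each of the 4 arrays, as log2(signal + 16) minus the gene's mean over the arrays, with genes ordered by genotype difference. Averaged over the 42 genes, the value was 0.21 and 0.25 on the wild-type arrays and -0.23 on both SMRTmRID arrays.

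Without the 6 tested genes of the Myc network, the remaining 36 members were more one-sided, with 26 lower and 3 higher, and with a median of -0.63. The rise of Mxd1, Mxd4 and Mxi1 thus accounted for 3 of the 6 rises.

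In the Myc network, Myc, its partner Max and the repressor gene Mnt were lower, and the repressor genes Mxd1, Mxd4 and Mxi1 were higher. Myc, the activator itself, had signals of 884 and 986 in wild-type, against 743 and 758 in SMRTmRID. Both SMRTmRID arrays lay below both wild-type arrays, and the difference was -0.31 ± 0.07 (SE, n = 2 arrays a genotype, adjusted p = 0.00254 by limma). It was a small one beside those of most members. The paralogs Mycn, known from embryonic and neural cells, and Mycl were dim. Mycn had signals of 29.0 and 28.0 in wild-type, against 12.1 and 35.4 in SMRTmRID. Mycl had 22.1 and 17.1 in wild-type, against 28.4 and 26.4 in SMRTmRID. The 2 SMRTmRID arrays of Mycn lay on either side of the wild-type pair, and neither gene was tested.

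Max, the obligate partner of Myc and of the repressors alike, had signals of 405 and 325 in wild-type, against 155 and 162 in SMRTmRID. The wild-type arrays were spread more widely than the mutant ones but stayed far above them, and Max fell by 1.12 ± 0.12 on the log2 scale (SE, adjusted p = 2.62e-05 by limma). Mnt, a Max partner that opposes Myc, had 313 and 330.1 in wild-type, against 159 and 192 in SMRTmRID, a fall of similar order (-0.82 ± 0.11 SE, adjusted p = 0.000148 by limma).

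Mxd1, a repressor that is known to rise when cells leave the cycle and differentiate, had signals of 72.7 and 74.7 in wild-type, against 143 and 144 in SMRTmRID. That was nearly a doubling, with little spread in either genotype (0.83 ± 0.15 SE, adjusted p = 0.000952 by limma), though its second brightest probe set gave 0.52. Mxd4, of the same family, had 347 and 391 in wild-type, against 582 and 634 in SMRTmRID (0.70 ± 0.08 SE, adjusted p = 5.84e-05 by limma), and its other probe sets gave 0.41, 0.32 and 0.14, the last with overlapping arrays. Mxi1, a further repressor of the family, had 582 and 577 against 830.4 and 834 (0.51 ± 0.06 SE, adjusted p = 4.47e-05 by limma). The second probe set of Mxi1 gave 0.42. On the brightest probe sets no array of one genotype reached the range of the other for these repressor genes. Of all tested genes 20.9% were called higher by at least 0.5, as these 3 were on their brightest probe sets. With all probe sets of a gene averaged, the 3 differences were 0.53 (Mxd1), 0.39 (Mxd4) and 0.46 (Mxi1), and all still passed (adjusted p at most 0.0176 by limma).

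**Figure D3:**
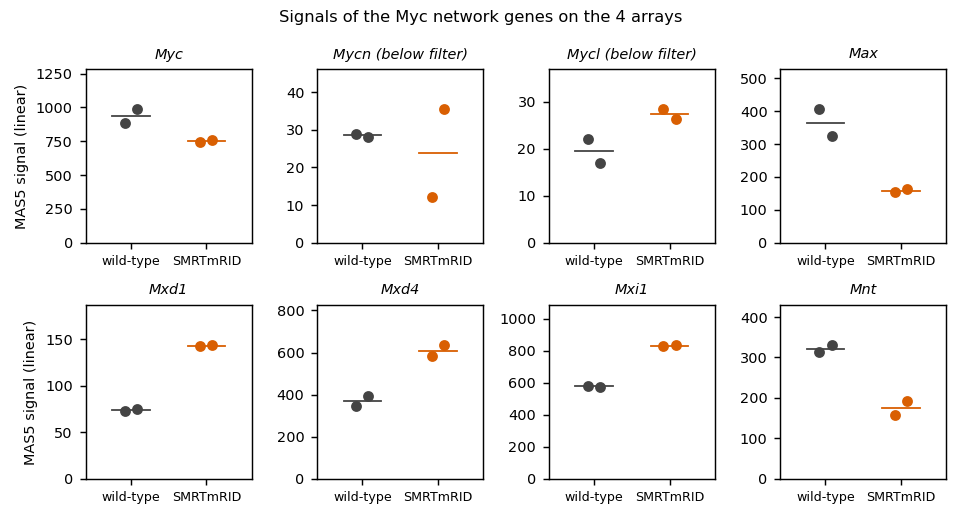
Linear MAS5 signal of the 8 Myc network genes on the 4 arrays, with a point per array and a line at the mean of 2 arrays; each panel has its own axis from 0. Myc, Max and Mnt are lower in SMRTmRID, Mxd1, Mxd4 and Mxi1 are higher, and the dim Mycn and Mycl were not tested.

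Since Myc and its Max partners bind the E-box, the RefSeq promoter windows of the members (300 bases, from 250 before to 50 after each start, build GRCm38.p6) were searched for its letters. The motif CACGTG reads the same on both strands, and the related CACGCG was searched together with its reverse complement CGCGTG. The forms cannot be the same 6 bases, though CACGCG and CGCGTG can share some. Windows were matched for 39 of the 44 genes, and Myc, Npm1, Fbl, Bop1 and Rrs1 had none. CACGTG stood in a window of 10 of the 39 members (25.6%), against 8.09% of 27025 genes with a window and 12.0% of the tested genes. Among members it was in 7 of 25 that fell, in 2 of 6 that rose and in 1 of 6 that did not pass. CACGCG stood in a window of 13 of the 39 members (33.3%), against 10.5% of all genes and 20.5% of the tested ones. By call, it was in 12 of the 25 members that fell, in none of the 6 that rose and in none of the 6 that did not pass. Among all tested genes CACGCG was about as frequent in those called lower (21.6%) as in those called higher (20.5%). Median GC content of the windows was 59.3% for members and 61.0% for tested genes. A match shows that the letters are there, not that a factor binds.

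Stretches of up to 86 bases with a match before the start are shown for 7 genes to set members that fell beside 1 that rose and 1 that did not pass. They are written 5′ to 3′ on the gene's strand with the motifs in capitals, and they were chosen after the calls were known. Those of the first 5 genes belong to members that fell.
Imp4, chr1:34439668-34439753, plus strand: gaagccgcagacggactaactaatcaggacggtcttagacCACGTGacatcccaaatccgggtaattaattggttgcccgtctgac
Nop2, chr6:125131783-125131868, plus strand: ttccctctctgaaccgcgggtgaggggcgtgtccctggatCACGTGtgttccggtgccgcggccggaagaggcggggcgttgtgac
Nip7, chr8:107056796-107056876, plus strand: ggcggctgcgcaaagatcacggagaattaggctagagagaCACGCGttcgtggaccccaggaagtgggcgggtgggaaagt
Mybbp1a, chr11:72441172-72441257, plus strand: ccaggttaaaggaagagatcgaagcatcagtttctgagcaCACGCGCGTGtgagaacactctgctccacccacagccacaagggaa
Nolc1, chr19:46075782-46075846, plus strand: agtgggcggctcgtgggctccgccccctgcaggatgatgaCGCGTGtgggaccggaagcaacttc
Mxd4 (higher), chr5:34187884-34187960, minus strand: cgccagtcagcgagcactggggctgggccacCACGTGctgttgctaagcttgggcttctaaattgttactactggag
Rrn3 (did not pass), chr16:13780611-13780696, plus strand: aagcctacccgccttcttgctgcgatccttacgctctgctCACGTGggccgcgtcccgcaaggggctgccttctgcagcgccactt
The core E-box thus stood before the start of genes with opposite calls. It began 121 bases before the start of Imp4, 60 before that of Nop2, 219 before that of Mxd4, and both 215 and 48 before that of Rrn3.

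RNA polymerase I genes were lower by modest amounts. Of the 6 members 5 fell and none rose, with a median of -0.43. Polr1b, which encodes the second largest subunit, had signals of 206 and 226 in wild-type, against 137 and 122 in SMRTmRID, a difference of -0.68 ± 0.12 (SE, adjusted p = 0.00101 by limma). It was the only member of this group to fall by 0.5 or more. Polr1a, the largest subunit, Polr1c, a subunit shared with RNA polymerase III, and Polr1e had differences of -0.45, -0.30 and -0.41. For Polr1a the call was lost with its second brightest probe set, at -0.18 (adjusted p = 0.31 by limma). It was also lost with its 5 probe sets averaged, some of them below the filter, at -0.26 (adjusted p = 0.136 by limma). A further Polr1a probe set above the filter gave -1.06, with signals of 280 and 268 in wild-type, against 104 and 146 in SMRTmRID. The call of Polr1e did not survive the removal of either wild-type array (adjusted p = 0.0748 and 0.111) or of SMRTmRID replicate 1 (adjusted p = 0.21), without which its difference was -0.24. Ubtf, the upstream binding factor that opens ribosomal DNA, fell by 0.46 on the log2 scale. Rrn3, the initiation factor that brings the polymerase to the promoter, had 349.9 and 347 in wild-type, against 290.3 and 322 in SMRTmRID. Its arrays did not overlap, but the difference of -0.18 did not pass (95% interval -0.38 to 0.02, adjusted p = 0.098 by limma).

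The 3 tested proteins of the box C/D snoRNP, which places methyl groups on ribosomal RNA, moved unequally. Fbl, fibrillarin, the methyltransferase of the particle, had signals of 2048 and 1935 in wild-type, against 840.0 and 761 in SMRTmRID. All mutant values were under the lower wild-type value by a wide margin, with a difference of -1.30 ± 0.06 (SE, adjusted p = 1.45e-07 by limma) and a ratio of wild-type to SMRTmRID means of 2.49. Its other probe set gave -1.50. Nop56, a scaffold of the same particle, had 1005 and 1041 in wild-type, against 505 and 539 in SMRTmRID, close to a halving. Nop58, the partner of Nop56, had 516 and 565 against 463 and 521, with overlapping arrays and a difference of -0.13 that did not pass (95% interval -0.32 to 0.05). That interval lies apart from the one of Nop56 (-1.09 to -0.81), a contrast that was noticed in the data and has no test of its own.

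A like split appeared in the box H/ACA snoRNP, which converts uridine to pseudouridine. Nhp2, one of its core proteins, had signals of 1645 and 1694 in wild-type, against 884 and 873 in SMRTmRID. It was lower on both mutant arrays with hardly any spread between replicates (-0.91 ± 0.05 SE, adjusted p = 4.03e-07 by limma). Gar1 had 1029 and 1004 in wild-type and 704 on each SMRTmRID array, a difference of -0.52 ± 0.06 (SE). Nop10, the smallest core protein, fell by 0.22, and its second probe set gave -0.43. After quantile normalization the difference of Nop10 was -0.0886 and did not pass (adjusted p = 0.103 by limma). Dkc1, dyskerin, the pseudouridine synthase itself, had 545 and 537 in wild-type, against 552 and 497 in SMRTmRID, which overlap. Its difference of -0.04 did not pass (95% interval -0.21 to 0.12), and its dimmest probe set gave 0.33.

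Assembly factors of the large subunit were lower with 1 exception. Of 9 tested genes 8 fell, none rose, and the median was -0.97. In the PeBoW complex, a trio needed to process the precursor of the 60S rRNAs, all 3 genes fell. Wdr12 had signals of 388 and 375 in wild-type, against 139.7 and 140.5 in SMRTmRID, the greatest fall of any member (-1.35 ± 0.10 SE, adjusted p = 1.92e-06 by limma). Bop1 had 892 and 1066 in wild-type, against 423 and 407 in SMRTmRID (-1.20 ± 0.09 SE). Pes1 had 641 and 741 in wild-type, against 416 and 411 in SMRTmRID (-0.72 ± 0.08 SE), and its second probe set gave -0.29, which did not pass (adjusted p = 0.0937 by limma). No array of one genotype reached the range of the other for these 3 genes. The value of Wdr12 rests on its brightest probe set: the next one, with signals between 34.1 and 55.1, gave -0.02, and all 3 averaged gave -0.33 (adjusted p = 0.0919 by limma).

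The other large-subunit factors, except Rrp1b, were also lower on their brightest probe sets. Rrs1, which helps to bring the 5S ribonucleoprotein into the pre-60S particle, had signals of 1233 and 1213 in wild-type, against 461 and 497 in SMRTmRID. Both of its probe sets were lower, at -1.32 ± 0.06 (SE, adjusted p = 1.27e-07 by limma) and -1.38. Nip7 had 1596 and 1567 in wild-type, against 722 and 734 in SMRTmRID (-1.10 ± 0.05 SE), but its second probe set, with signals between 66.2 and 99.3, gave -0.26. Ebna1bp2, the human homolog of which binds a viral nuclear antigen, had 922 and 909 in wild-type, against 467 and 453 in SMRTmRID (-0.97 ± 0.06 SE). Averaged with its 2 dim probe sets it gave -0.15 and did not pass (adjusted p = 0.383 by limma). On the brightest probe sets of these 3 genes the genotypes lay further apart than the replicates did. Nop16, a nucleolar protein gene known as a Myc target, had 559 and 581 in wild-type, against 355 and 352 in SMRTmRID. Nop2, an rRNA methyltransferase also known as a proliferation antigen, had 448 and 471 in wild-type, against 309 and 274 in SMRTmRID. Their differences were -0.66 and -0.63. Rrp1b was the exception in this group, with 289 and 304 against 301 and 310.1, overlapping arrays and a difference of 0.04 (95% interval -0.15 to 0.24).

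Small-subunit factors went both ways. There were 5 falls and 2 rises among 8 tested genes, and the median was -0.72. Imp3 and Imp4 belong to 1 complex with the U3 snoRNA, the RNA that guides the first cuts in the precursor. Imp3 had signals of 992 and 1053 in wild-type, against 583 and 610.3 in SMRTmRID (-0.76 ± 0.06 SE, adjusted p = 4.09e-06 by limma). Imp4 had 319 and 368 in wild-type, against 198 and 156 in SMRTmRID (-0.91 ± 0.13 SE, adjusted p = 0.000178 by limma). The 2 genes fell by amounts whose intervals overlap. Of the other probe sets of Imp4, one gave -1.16 and the second brightest -0.05, so its value depends on the probe set.

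Rrp9, the U3-specific protein, had signals of 265 and 287 in wild-type, against 159 and 132 in SMRTmRID. Utp20, a large scaffold of the processome, had 249.9 and 238 in wild-type, against 151 and 121 in SMRTmRID. Bysl, bystin, which acts late on the pre-40S particle, had 402 and 460.0 in wild-type, against 232 and 295 in SMRTmRID. Their differences were -0.86, -0.78 and -0.68 (adjusted p at most 0.000707 by limma), and in each case the mutant arrays lay below the wild-type ones without overlap.

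Against this direction, Wdr43 and Nop14 rose. Wdr43, a subunit of the processome part that is loaded during transcription of the precursor, had signals of 450.0 and 471 in wild-type, against 671 and 654 in SMRTmRID, and its second probe set was also higher, at 0.48. Nop14, a nucleolar factor of the same pathway, had 199 and 241 in wild-type, against 327 and 311 in SMRTmRID. Both differences were 0.51, with adjusted p-values of 0.000101 and 0.00259 (limma). Wdr75, which sits in the same processome part as Wdr43, had 403 and 420.3 against 449 and 444, and its difference of 0.11 did not pass (95% interval -0.05 to 0.28).

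Nucleolar scaffold and chaperone genes divided by gene. Npm1, nucleophosmin, the chaperone that forms much of the granular layer of the nucleolus, had signals of 5983 and 6199 in wild-type, against 6194 and 6440.2 in SMRTmRID. Ncl, nucleolin, had 3866 and 4159.6 against 4229 and 4118. For both genes the arrays overlapped and the difference was close to 0, at 0.05 (95% interval -0.05 to 0.16) and 0.06 (95% interval -0.06 to 0.17). These intervals leave out a fall of the size of the members' median. The sign of both depended on how arrays were scaled: with arrays centred on their medians they were -0.11 and -0.11, and neither passed, whereas after quantile normalization they were 0.12 and 0.19 and passed (adjusted p = 0.0175 and 0.00182 by limma). A dim Ncl probe set, with signals of 63.1 and 91.1 in wild-type, against 18.7 and 23.3 in SMRTmRID, gave -1.32, while the second brightest gave -0.02.

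In the same group Mybbp1a, a nucleolar protein that binds the Myb factor and takes part in rRNA control, had signals of 1254 and 1268 in wild-type, against 627 and 676 in SMRTmRID. Nolc1, a phosphoprotein that carries snoRNPs between nucleolus and Cajal bodies, had 804 and 806 in wild-type, against 512 and 524 in SMRTmRID. Their differences were -0.94 ± 0.06 and -0.62 ± 0.06 (SE, adjusted p = 8.46e-07 and 1.46e-05 by limma), and all of their other probe sets were lower too. Ddx21, an RNA helicase of the nucleolus, fell by 0.48. Gnl3, nucleostemin, a GTPase gene of dividing and stem cells, had 561 and 635 in wild-type, against 687 and 770.2 in SMRTmRID. It passed at 0.28 ± 0.08 (SE, adjusted p = 0.0134 by limma), but not without wild-type replicate 1 (adjusted p = 0.0834), without SMRTmRID replicate 2 (adjusted p = 0.0948) or with arrays centred on their medians (adjusted p = 0.356).

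Probe sets other than the brightest gave a check within the array. The tested members had 45 further probe sets, of which 35 lay above the filter on signal, and 27 of those 35 had the sign of the brightest. For 25 members more than 1 probe set was above the filter, and 21 of them had the same sign on all. Those with both signs were Npm1, Ncl, Dkc1 and Rrp1b, none of which passed. Above the filter, no member had 1 probe set higher by more than 0.5 and another lower by more than 0.5. The size of the difference did vary between probe sets, as from -1.35 to -0.02 for Wdr12 and from 0.06 to -1.32 for Ncl.

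**Figure D4:**
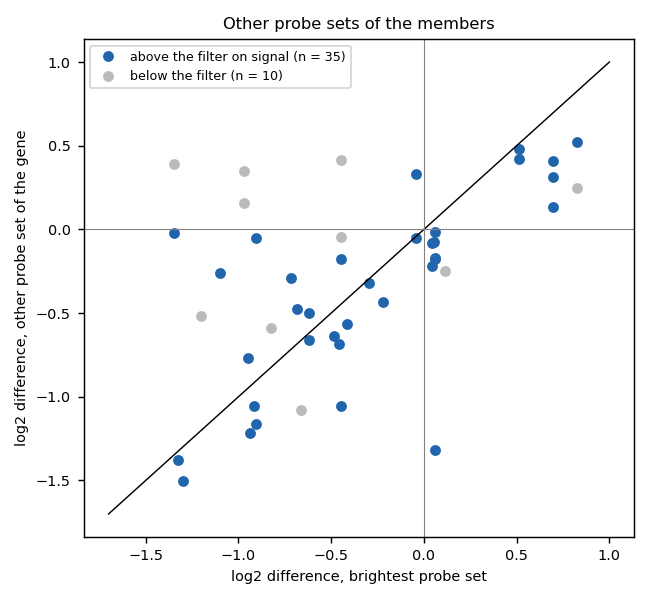
Log2 difference (SMRTmRID minus wild-type) of each further probe set of a tested member against that of the gene's brightest probe set, with the line of equality. Of 35 probe sets above the filter (blue) most lie in the lower left, several nearer 0 than the brightest, and the blue point at -1.32 on the vertical axis is the dim Ncl probe set.

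Related genes that are not members were followed through lists. For comparison, 35.0% of all tested genes were called lower and 30.3% higher. Of 97 tested further ribosome biogenesis factors 59 fell (60.8%) and 11 rose (11.3%), with a median of -0.41. The falls were led by Rrp12, an export factor of pre-ribosomes, at -1.78, Rrp8 at -1.58 and the exosome subunit gene Exosc5 at -1.38. Rrp12 had mean signals of 159 in wild-type, against 34.9 in SMRTmRID, just under the filter. It thus passed the filter through wild-type alone. The rises were led by Esf1 at 1.18, Nol8 at 1.01 and Riok2, a kinase of late 40S maturation, at 0.64. Nol8 had mean signals of 33.5 in wild-type, under the filter, against 82.1 in SMRTmRID, so it passed the filter through SMRTmRID alone. Of 13 further genes for RNA polymerase I subunits and factors 6 fell (46.2%) and 2 rose (15.4%), and their median was -0.08. Polr2h and Polr2e, subunits shared by all nuclear polymerases, had differences of -1.23 and -1.09, and Cd3eap of -0.76, while Ttf1, a termination factor, rose by 0.54 and Twistnb by 0.40. The RNA polymerase III list covers the enzyme that makes 5S rRNA and tRNA. It had 11 of 20 lower (55.0%) and 4 higher (20.0%) with a median of -0.37. Its greatest falls were those of Polr3e at -1.49, Gtf3c1 at -0.98 and Gtf3a at -0.65, and Bdp1 rose by 1.00.

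Ribosomal protein genes themselves had a median near that of all tested genes, but their calls were mostly falls. Of 81 symbols 46 had a probe set named to them alone and 45 were tested. Of those, 21 fell (46.7%), 1 rose (2.22%) and 23 did not pass, and the median was -0.11. Among all tested genes 35.0% fell and 30.3% rose. Among the 45, 7 fell by 0.5 or more, where 21.4% of all tested genes did. Rps6 fell by 1.95, Rps27l, a p53-responsive paralog, by 0.97 and Rpl22l1, the paralog of Rpl22, by 0.80, and Rps28 rose by 0.14. The Rps6 probe set had signals of 1148 and 1166 in wild-type, against 285 and 292 in SMRTmRID. It was dimmer than the probe sets of most genes on this list. Ribosomal protein genes have many near-identical processed copies in the genome, so their probe sets may read more than the named gene.

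Most tested genes on the list of Myc-induced targets outside ribosome assembly were lower, and those repressed by Myc went both ways. Of 40 tested genes known to be induced by Myc 29 fell (72.5%) and 4 rose, with a median of -0.45. Slc7a5, an amino acid transporter gene, fell by 1.56, Rcc1 by 1.40 and Atic, an enzyme of purine synthesis, by 1.37, while Slc16a1, Eif4e and Tfrc rose by 0.59, 0.33 and 0.24. Among 16 genes known to be repressed by Myc 6 rose and 8 fell, with a median of -0.10. Pdgfrb and the cell cycle inhibitor gene Cdkn2b rose by 1.78 and 1.67, whereas Cdkn1a, which encodes p21, fell by 3.79. Of 19 other network members and cofactors 10 fell (52.6%) and 6 rose (31.6%). Among them were Mga, another Max partner, at 1.04, and Mycbp2 at 0.89, against Usp36 at -0.98 and Ruvbl2 at -0.98. All of these lists were written with earlier results of the same arrays known, and none was tested as a list.

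**Figure D5:**
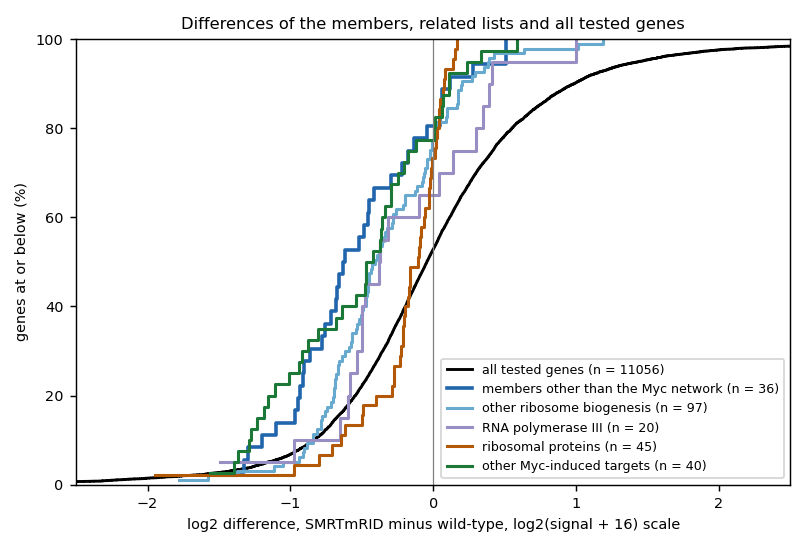
Cumulative share of genes (%) at or below each log2 difference (SMRTmRID minus wild-type) for all tested genes, the 36 members outside the Myc network and 4 related lists. The members, the further biogenesis factors and the Myc-induced targets lie left of the curve of all genes, with medians of -0.63, -0.41 and -0.45 against -0.05, and the ribosomal protein genes rise steeply near 0.

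Proliferation genes moved with the members. Of 19 tested, 14 fell (73.7%) and 4 rose (21.1%), with a median of -0.70, where 35.0% of all tested genes fell and 30.3% rose. Mcm5, part of the helicase that opens DNA for replication, fell by 1.61, Rrm2 by 1.56 and the mitotic kinase gene Plk1 by 1.35. Tyms, Mki67 and Bub1 rose by 0.82, 0.64 and 0.60. The brightest Tyms probe set was dim, with mean signals of 32.1 in wild-type, under the filter, against 69.1 in SMRTmRID. Tyms thus passed the filter through SMRTmRID alone. The part of growth state in the members' differences was not tested.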

How the data were processed

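Total RNA of 2 wild-type and 2 SMRTmRID arrays was compared. The deposited intensity values are MAS5 signals per the submitters' processing notes, on a linear scale with 1 value per probe set and array. Their mean without the lowest and highest 2% was 200.0 on every array. Detection calls were not used here. Of 45037 probe sets that are not controls, 34945 had 1 gene symbol in GEO's platform annotation, 932 had several and 9160 were given none here. Symbols were updated through the GRCm38.p6 gene table. No further normalization was applied, and log2(signal + 16) was fitted with limma 3.58.1 under R 4.3.3 (lmFit, eBayes with a mean-variance trend, no covariates) over 11056 genes with a mean above 35.1. The procedure was tested on simulated data, in which far fewer genes changed than passed here. The simulated spread was that of the technical replicates, so it held no variation between lines. All p-values are two-sided. The members and the lists were chosen with earlier results of these data known. Values on every array are given for Myc network genes and for members called with a difference of at least 0.5, and for members shown for contrast, chosen after their values were seen. Of each further list up to 3 called genes each way are named. Deviations of same-numbered arrays correlated at 0.0121 across genes, and the arrays were fitted without pairing. That value cannot show whether same-numbered arrays were handled together. Figures used matplotlib 3.10.9.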

Additional observations from a re-analysis of the deposited data

How the results depend on the processing

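The count of members called lower was between 20 and 31 over 14 alternatives (other pseudocounts, filters, scalings and probe set rules, no variance trend, a replicate block, and 1 array left out at a time), and that of members called higher between 5 and 8. Of the 29 members called lower, 21 kept their call under every alternative that gave a value, as did 5 of the 6 called higher (not Gnl3). The median over members, -0.57, was -0.51 with a pseudocount of 64, -0.50 without a filter, -0.73 with arrays centred on their medians, -0.51 with probe sets of a gene averaged and -0.32 with the second brightest probe set, and between -0.57 and -0.53 with 1 array left out. Median centring moved the median of all tested genes by -0.16, to -0.21, and made 65.7% of all calls lower, against 53.6%. With the replicate number as a block 29 members were lower and 6 higher, the median was -0.57, and 7418 genes passed in all, against 7212, with no call among the members changed. Members that changed sign had not passed: Npm1 at -0.11 (centred), -0.012 (probe sets averaged) and -0.076 (second brightest), Ncl at -0.11, -0.32 and -0.016 under the same settings, Rrp1b at -0.12, -0.085 and -0.22, and -0.027 after quantile normalization, Wdr75 at -0.048 (centred) and -0.068 (averaged), and Dkc1 at 0.077 (averaged) and 0.029 without SMRTmRID replicate 2. Of these only Ncl, with its probe sets averaged, then passed as lower (adjusted p = 0.00224 by limma). The second brightest probe set ended the calls of Imp4, Pes1, Wdr12, Nip7 and Polr1a, averaging those of Wdr12, Ebna1bp2 and Polr1a, and the cause was not tested. With 2 arrays a genotype, their number limits the precision, and leaving 1 out assumes that the lone array varies like the other genotype's.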
